A study of Mus musculus with 16 samples.

Results

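Translation initiation factors are the proteins that bring a ribosome, an initiator tRNA and an mRNA together at a start codon, and their transcripts were followed here in the mouse colon. The genes were chosen by name: every gene symbol beginning with Eif and a digit on a platform row with a single gene symbol was taken, apart from the sex-linked pair Eif2s3x and Eif2s3y. This gave 51 genes of the 30702 tested. Of these, 45 carry the name of a factor, a kinase or a binding protein of the pathway, 5 are annotated pseudogenes, and Eif2c5 is an old argonaute symbol that shares only the prefix. Where a gene had several rows, the brightest row on average was kept. This choice touched Eif3d alone, whose retained row had a mean log2 level of 9.26 and whose other row had a mean of 5.32. Genes whose only row carried several symbols are not members, which left out Eif5, Eif4a2, Eif4a3 and Eif3j1 among others. Eif1, Eif2s1, Eif3g and Eif4g1 had neither a row of their own nor one of these shared rows, and are not covered either. Core subunits of several complexes are therefore missing here.

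The study profiled the colon mucosal layer of male C57BL/6J mice on 16 microarrays. Both genotypes carried a homozygous floxed allele of Mcc, a gene first described as mutated in colorectal cancer. The sibling controls, Mccf/f without Cre, are called WT below, as the sample titles call them. The knockouts, VILcreMccf/f, carried a Cre driven by the villin promoter and are called KO below, so that Mcc was deleted in intestinal epithelial cells and could remain in the other cells of the mucosa. From 6 weeks of age the mice received control feed or feed with 320 ppm sulindac, a nonsteroidal anti-inflammatory drug, for 10 weeks. Mucosa of sulindac-fed mice was taken only from inflamed areas of the proximal colon, and these samples are called lesions. Control-fed mice gave matching normal mucosa, so effects of the diet and of sampling only inflamed areas cannot be told apart. The arrays comprised 6 WT controls, 3 WT lesions, 3 KO controls and 4 KO lesions. The labels do not say that each array came from a different mouse, so p-values measure the spread between these arrays, which may be partly technical.

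A few facts about the arrays bear on every result. Mcc was lower on every KO array, 6.39 to 6.71 on the log2 scale, than on every WT array, 7.06 to 7.40, as the genotype labels state. The mean log2 level of 16 colonocyte markers was 11.23 to 11.47 in the control arrays and 10.70 to 11.20 in the lesions. Markers of neutrophils (11 genes) had means of 5.16 to 5.38 in controls, 7.40 to 7.97 in WT lesions and 8.17 to 9.66 in KO lesions. Monocyte and macrophage, fibroblast and T and NK cell lists were also higher in lesions, with 12, 7 and 5 of 13, 8 and 8 genes called higher in WT lesions. B and plasma cell and smooth muscle lists had 1 of 9 and 0 of 8 called higher there. The mix of cell markers thus differed between lesions and controls, and fewer cells of a type and less RNA per cell cannot be told apart in this tissue. The part of these cells in the results below was not tested. KO lesion 3 stood apart from the other KO lesions: its mean over 22 proliferation genes was 8.43 against 7.10 to 7.66, over 24 interferon-stimulated genes 7.27 against 8.05 to 8.24, and over the neutrophil markers 8.17 against 8.94 to 9.66. Each sample description ends in a number, and these numbers form a lower and a higher series. All lesions and WT controls 1 to 3 were of the lower series, and WT controls 4 to 6 and all KO controls of the higher. The labels do not say what the numbers mean. In the KO response the series and the group cannot be told apart, except through the WT controls, which hold both.

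Initiation in animal cells begins when eIF2, carrying GTP and the initiator tRNA, joins the small ribosomal subunit together with eIF1, eIF1A, eIF5 and the large scaffold eIF3. The cap-binding complex eIF4F, made of the cap-binding protein eIF4E, the scaffold eIF4G and the helicase eIF4A, loads this assembly on the mRNA, which is then scanned to a start codon, where eIF5B joins the large subunit. The pathway is controlled at 2 points: 4E-binding proteins hold eIF4E away from eIF4G unless the kinase mTORC1 phosphorylates them, and 4 stress kinases phosphorylate eIF2 alpha, which then blocks the exchange factor eIF2B. The second control, the integrated stress response, lowers general translation and favours mRNAs such as Atf4. In the intestine, cell renewal and secretion place a heavy demand on protein synthesis. Transcript levels say nothing of phosphorylation, on which much of this control rests.

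Promoter sequence was at hand for 35 of the 51 genes, as RefSeq annotates them on GRCm38.p6, over 250 bases before and 50 after the start of transcription. The other 16, Eif4e3 and Eif4ebp1 among them, could not be searched. Windows of 30 bases are shown for Eif2ak2, the interferon-inducible kinase that rose in both genotypes, and for 4 core factors, of eIF4F, eIF3 and eIF5A, that share the E-box CACGTG, the letters bound by Myc family factors. Capitals mark the motif searched.
Eif2ak2, chr17:78882535-78882564, minus strand: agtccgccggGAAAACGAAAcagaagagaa
Eif4a1, chr11:69672595-69672624, minus strand: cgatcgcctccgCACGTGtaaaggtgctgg
Eif4e, chr3:138527028-138527057, plus strand: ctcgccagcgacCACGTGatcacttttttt
Eif5a, chr11:69921443-69921472, minus strand: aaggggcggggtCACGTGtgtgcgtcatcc
Eif3f, chr7:108934335-108934364, plus strand: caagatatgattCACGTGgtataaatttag
In all, 5 motifs were searched on both strands, and a match is a description of letters and not of a site. A gene was counted if any of its promoter entries matched, and the 35 members had 48 entries. The number of entries per gene was not matched between the members and all genes. The interferon-stimulated response element, taken as GAAA, any 2 bases and GAAA again, lay in the promoters of Eif2ak2 and Eif3a, 2 of 35 members or 5.71%, against 3.99% of 27025 genes with a promoter entry. In Eif2ak2 it begins at base 19 after the start. The E-box CACGTG lay in 9 of 35 (25.7%), against 8.09% of all genes: Eif1b, Eif3a, Eif3f, Eif3k, Eif4a1, Eif4e, Eif4h, Eif5a and Eif5a2. An ETS site, CCGGAAGT, lay in 8 of 35 (22.9%), against 4.31% of all genes. The composite element TGATGNAA, of the kind bound by Atf4, and the cyclic AMP response element TGACGTCA were in none of the 35 promoters, against 4.51% and 2.03% of genes. At such shares few matches fall in 35 promoters, and the members without an entry are not covered. Of these 9 E-box genes Eif4a1 was called higher in WT lesions, and the other 8 were called in neither response.

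Inflamed mucosa had higher Eif4e3, Eif4g3, Eif4ebp1 and Eif2ak2 and lower Eif2ak4 than normal mucosa in both genotypes, and most other members were not called. In the WT response, lesion against control, limma with Benjamini-Hochberg adjustment over all genes called 10 of 51 members higher and 1 lower at an adjusted p under 0.05. Of all genes, 15.4% were called, 6.98% higher and 8.37% lower. In the KO response 5 members were called higher and 5 lower, where 21.1% of all genes were called, 8.99% higher and 12.1% lower. The 19.6% of members called higher in WT lesions lies above the background share, while the 1.96% called lower there lies below it. In KO lesions the shares, 9.8% in each direction, lie near it. That background also holds genes of low signal. Of the 20559 genes above the array median in at least 3 arrays, larger shares were called in either direction, 22.8% in WT and 31.5% in KO. With only those genes tested, 10 members were called higher and 1 lower in WT, and 6 higher and 5 lower in KO. The median log2 change of the members was 0.12 in WT, where that of all genes fell by 0.06, and -0.08 in KO, where that of all genes was 0.01. In WT, 12 members had every lesion array above every control array and 1 had every one below, against 8.15% and 11.6% of all genes. In KO these were 7 and 3 members, against 12.7% and 14.4% of all genes. With quantile normalization repeated the WT split was 6 higher and 3 lower, with 14.8% of all genes called. With arrays centred on their medians the KO split was 5 and 3, with 19.5% of all genes called. The KO count of 10 was 5 with the number series as a covariate and 6 without KO control 1 or without KO lesion 4. The share of all genes called in KO also fell, to 8.19%, 14.6% and 17.6% in that order. In total 16 members were called in at least 1 response. Eif4e3, Eif2ak2, Eif4ebp1 and Eif4g3 were higher in both, Eif2ak4 was lower in both, and no member was called in opposite directions. The plot of changes by complex shows where these genes sit.

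**Figure D1:**
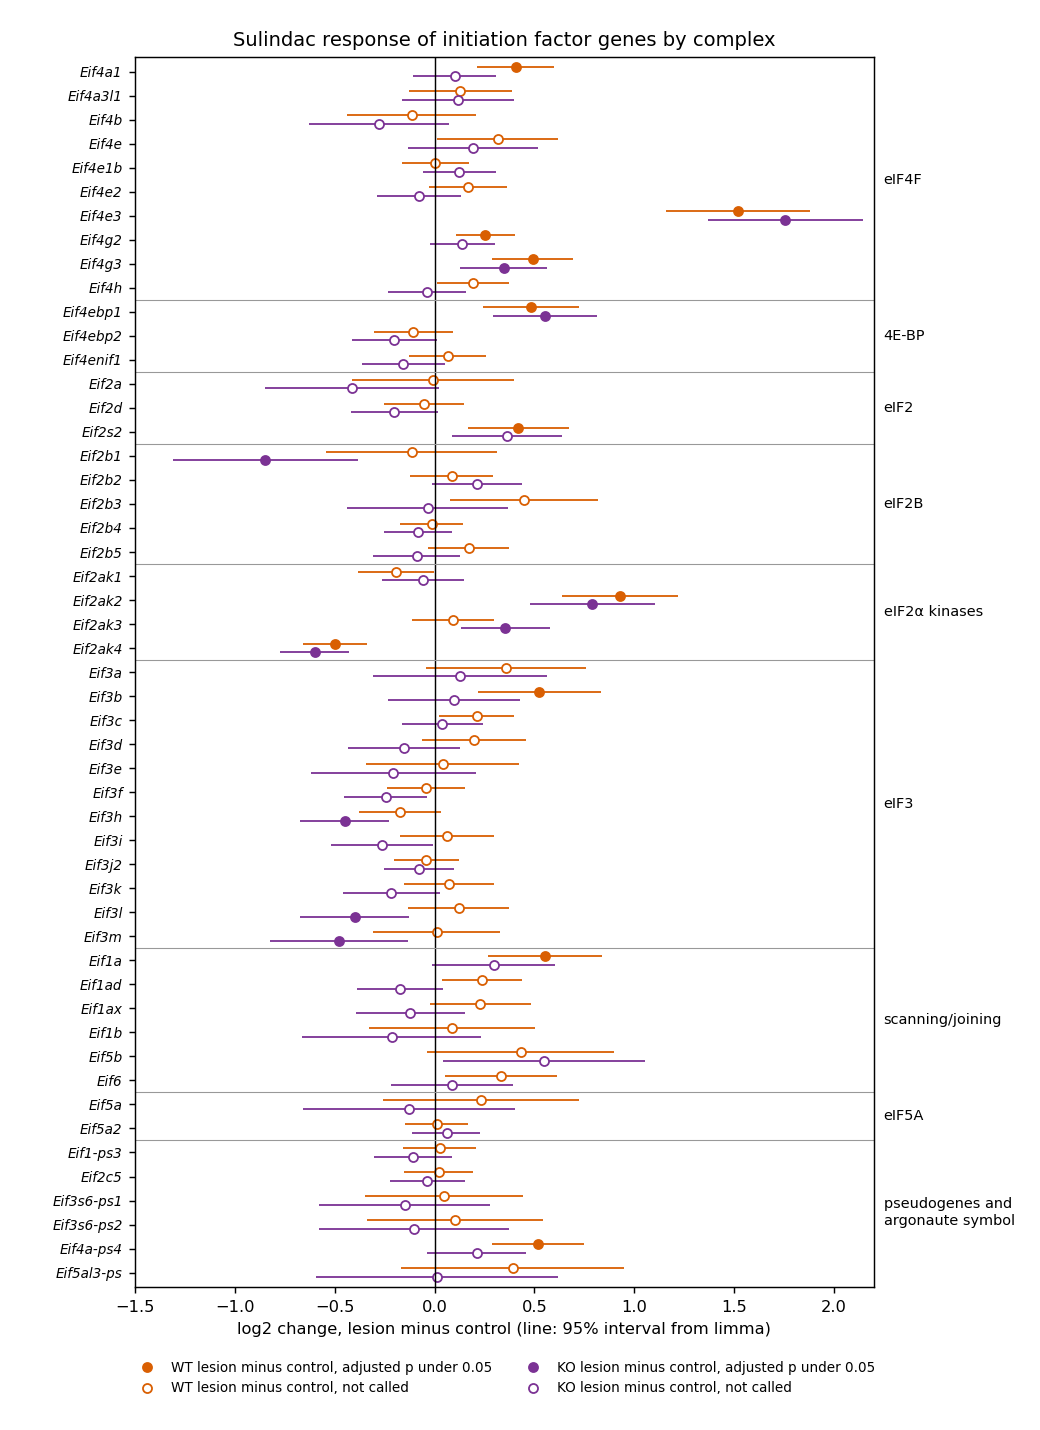
Log2 change (lesion minus control, horizontal axis) of the 51 genes, grouped by complex, in WT (orange) and KO (purple); lines are 95% intervals from the fit and filled points have an adjusted p under 0.05. Eif4e3 lies far to the right in both genotypes, at 1.52 and 1.76, Eif2ak4 lies to the left in both, at -0.50 and -0.60, and most eIF3 subunits have the purple point to the left of the orange one.

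Of the 10 genes of cap binding and the eIF4F helicase, 4 were called higher in WT and 2 in KO, with none lower, and Eif4e3 had the largest change of all 51 members in both responses. It encodes a divergent member of the eIF4E family that also binds the mRNA cap. Its log2 level was 6.13, 6.54 and 6.91 (lowest, median and highest) in WT controls and 7.84, 8.16 and 8.10 in WT lesions. In the KO mice it was 6.52, 6.29 and 6.44 in controls and 8.19, 7.91, 8.54 and 8.06 in lesions. No lesion array overlapped any control array. The log2 change was 1.52 (SE 0.17, 2.87-fold, adjusted p = 2e-05) in WT and 1.76 (SE 0.18, 3.38-fold, adjusted p = 6.67e-06) in KO, from limma. Both calls held in every alternative and with every array left out. The other cap-binding paralogs were not called. Eif4e itself, the main cap-binding protein, had log2 changes of 0.32 (95% interval 0.01 to 0.62, adjusted p = 0.16) in WT and 0.19 (-0.14 to 0.52, adjusted p = 0.455) in KO, in the same limma fit. Eif4e2, which competes for caps as a repressor, changed by 0.17 (-0.03 to 0.36) and -0.08 (-0.29 to 0.13). Eif4e1b, an oocyte form, sat near the array medians of 4.90 to 5.05, at a WT control mean of 5.46, and changed by 0.00 (-0.17 to 0.17) and 0.13 (-0.06 to 0.31). The 95% interval of Eif4e3 lay wholly above those of all 3 paralogs in both genotypes.

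Among the scaffolds, Eif4g3, a homolog of the main scaffold Eif4g1, which is not covered here, was also higher in both genotypes. It stood at 7.51, 7.79 and 7.98 (lowest, median, highest) in WT controls and at 8.14, 8.27 and 8.35 in WT lesions. KO controls were at 7.99, 7.99 and 7.68, and KO lesions at 8.25, 8.17, 8.26 and 8.25. Lesions lay above controls throughout in each genotype. The log2 change was 0.49 (SE 0.10, adjusted p = 0.00203, limma) in WT and 0.35 (SE 0.10, adjusted p = 0.0244) in KO, where the call was lost in 4 of 11 alternatives. It was also lost without KO control 3 (0.25, adjusted p = 0.128), KO lesion 1 (adjusted p = 0.0519) or KO lesion 4 (adjusted p = 0.0527). Eif4g2, a scaffold that lacks the eIF4E-binding site, was called higher in WT at 0.26 (SE 0.07, adjusted p = 0.021), but lost the call in 6 of 12 alternatives and without WT lesion 2 (adjusted p = 0.0608) or WT lesion 3 (adjusted p = 0.133), and changed by 0.14 (-0.02 to 0.30) in KO.

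The helicase Eif4a1, which unwinds the leader of the mRNA, was 8.75, 8.90 and 9.04 (lowest, median, highest) in WT controls and 9.42, 9.13 and 9.35 in WT lesions. These do not overlap, and the log2 change was 0.41 (SE 0.09, adjusted p = 0.00535, limma), held in all alternatives. In KO mice it was 8.97, 8.93 and 8.87 in controls and 9.06, 8.85, 9.19 and 9.01 in lesions, which overlap, and the change was 0.10 (95% interval -0.11 to 0.31). The difference between the 2 responses was -0.31 with an adjusted p of 0.427 (limma), so they were not shown to differ. The cofactors Eif4b and Eif4h were called in neither genotype, with changes of -0.12 and 0.19 in WT and -0.28 and -0.04 in KO. Eif4a3l1, a copy of an exon-junction helicase gene, changed by 0.13 and 0.12, uncalled.

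**Figure D2:**
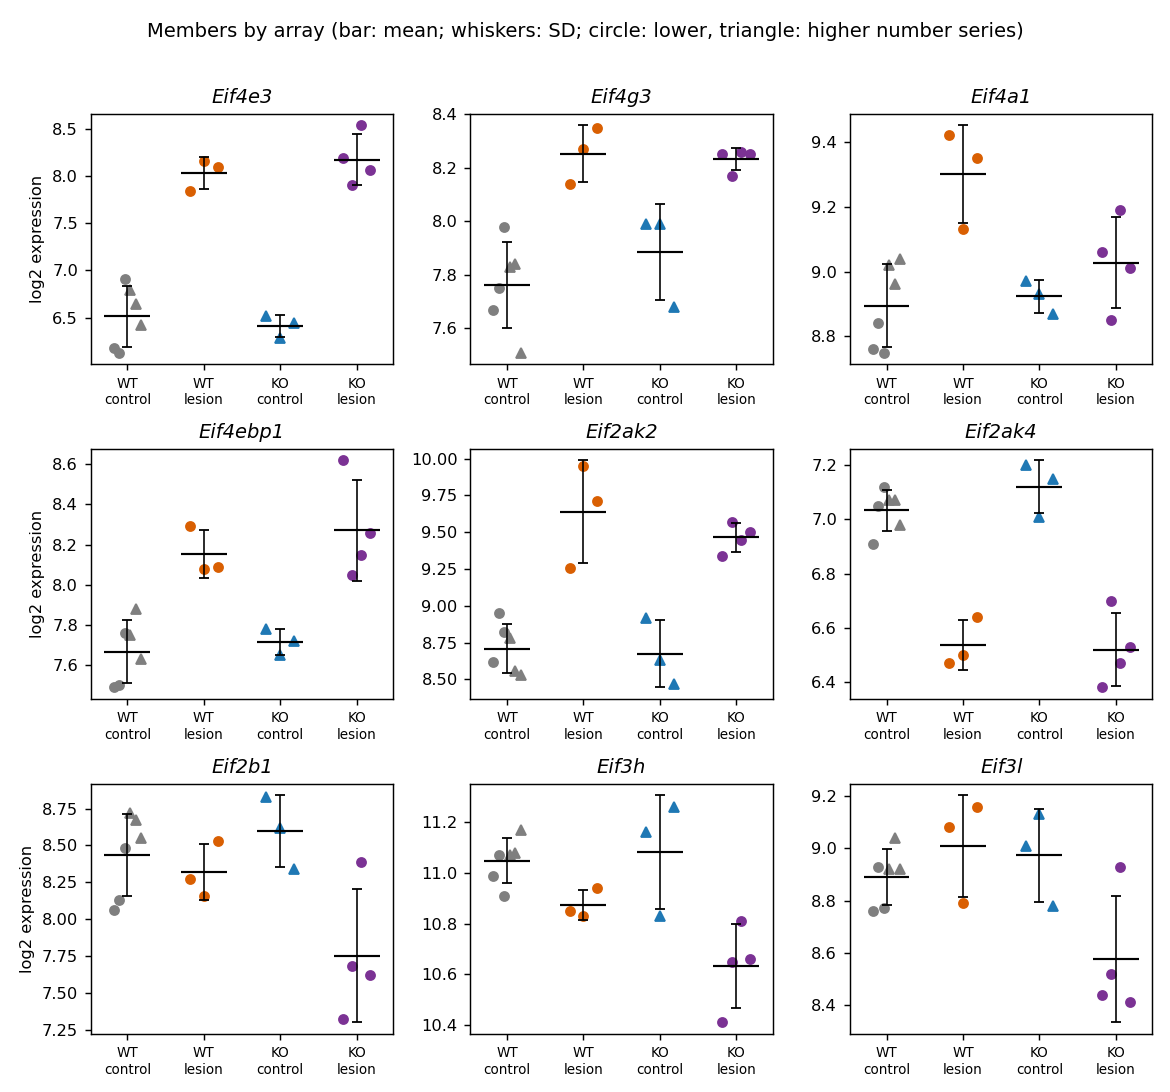
Log2 expression of 9 members on every array, with the mean (bar) and SD (whiskers) of each of the 4 groups; circles are arrays of the lower and triangles of the higher number series. Eif4e3, Eif4g3, Eif4ebp1 and Eif2ak2 sit higher and Eif2ak4 lower in the lesions of both genotypes without overlap, while in Eif2b1 and Eif3l KO lesion 3 lies among the controls.

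Of the 3 eIF4E-binding proteins, 1 rose. Eif4ebp1, a repressor released from eIF4E by mTORC1, was 7.49, 7.69 and 7.88 (lowest, median, highest) in WT controls and 8.29, 8.08 and 8.09 in WT lesions. The KO controls stood at 7.78, 7.65 and 7.72, and KO lesions at 8.62, 8.05, 8.15 and 8.26. Every lesion array exceeded every control array. The change was 0.48 (SE 0.11, 1.40-fold, adjusted p = 0.00778) in WT and 0.55 (SE 0.12, 1.47-fold, adjusted p = 0.00383) in KO from limma, and held in all alternatives in both. Its paralog Eif4ebp2 changed by -0.11 (95% interval -0.30 to 0.09) and -0.20 (-0.41 to 0.01), neither called. Eif4enif1, a protein that moves eIF4E to the nucleus and to P-bodies, changed by 0.07 and -0.16, neither called. Levels of the protein and its phosphorylation were not measured.

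Genes of mTORC1 signalling to translation gave background for this pair. Of all genes, 6.98% were called higher and 8.37% lower in WT, and 8.99% higher and 12.1% lower in KO. Of 26 measured genes of a list of 29, 1 was called higher and 3 lower in WT, and 1 higher and 9 lower in KO, with medians of -0.07 and -0.20. The 2 with the largest called changes in each response were the same genes: Pdcd4, which holds eIF4A in check, fell, with log2 changes of -1.17 in WT and -1.64 in KO, and Ddit4, an mTORC1 inhibitor, rose by 0.79 and 1.36.

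The kinases that phosphorylate eIF2 alpha split. Eif2ak2, which encodes PKR, the double-stranded-RNA sensor induced by interferon, was 8.53, 8.70 and 8.95 (lowest, median, highest) in WT controls and 9.26, 9.95 and 9.71 in WT lesions. KO controls were at 8.92, 8.63 and 8.47, and KO lesions at 9.34, 9.57, 9.45 and 9.5. Every lesion lay above every control. The change was 0.93 (SE 0.14, 1.90-fold, adjusted p = 0.000228) in WT and 0.79 (SE 0.15, 1.73-fold, adjusted p = 0.00106) in KO in the limma fit. With the number series as a covariate the KO change was 0.62 and no longer called (adjusted p = 0.104). Its sequence above holds the letters of the interferon-stimulated response element. Of 24 measured interferon-stimulated genes, 21 were called higher in WT lesions and 20 in KO lesions, with none lower. Of all genes, 6.98% and 8.99% were called higher. The list was led by Gbp2 and Iigp1, at log2 changes of 4.22 and 4.41 in WT and 4.52 and 4.15 in KO. The part of interferon in the rise of Eif2ak2 was not tested.

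Eif2ak4, which encodes GCN2, the sensor of uncharged tRNA, went the other way. It was 6.91, 7.06 and 7.12 (lowest, median, highest) in WT controls and 6.47, 6.50 and 6.64 in WT lesions. KO controls were at 7.20, 7.01 and 7.15, and KO lesions at 6.38, 6.70, 6.47 and 6.53. No lesion reached any control. It fell by 0.50 (SE 0.08, adjusted p = 0.000291) in WT and by 0.60 (SE 0.08, adjusted p = 7.64e-05) in KO on the log2 scale from limma, and both calls held in every alternative, the number-series covariate included. Of 9 goblet cell markers 5 were called lower in WT and 7 in KO, and none higher. The 16 colonocyte markers went both ways, with 1 called higher and 5 lower in WT, and 5 higher and 6 lower in KO. The part of these cells in the fall of Eif2ak4 was not tested.

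Eif2ak3, which encodes PERK, the kinase of endoplasmic reticulum stress, was called higher in KO, with a log2 change of 0.35 (SE 0.11, adjusted p = 0.0237, limma). In WT it changed by 0.09 (95% interval -0.11 to 0.30), and the difference between the responses was 0.26 (adjusted p = 0.472, limma). The KO call was lost with the series covariate, where the change was 0.10, and when KO control 1 (adjusted p = 0.0588), KO control 3 (0.0871) or KO lesion 4 (0.0704) was left out. Eif2ak3 was lower by 0.26 in higher-series WT controls than in lower-series ones. Eif2ak1, the heme-regulated kinase, was called in neither genotype, with changes of -0.19 and -0.06.

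**Figure D3:**
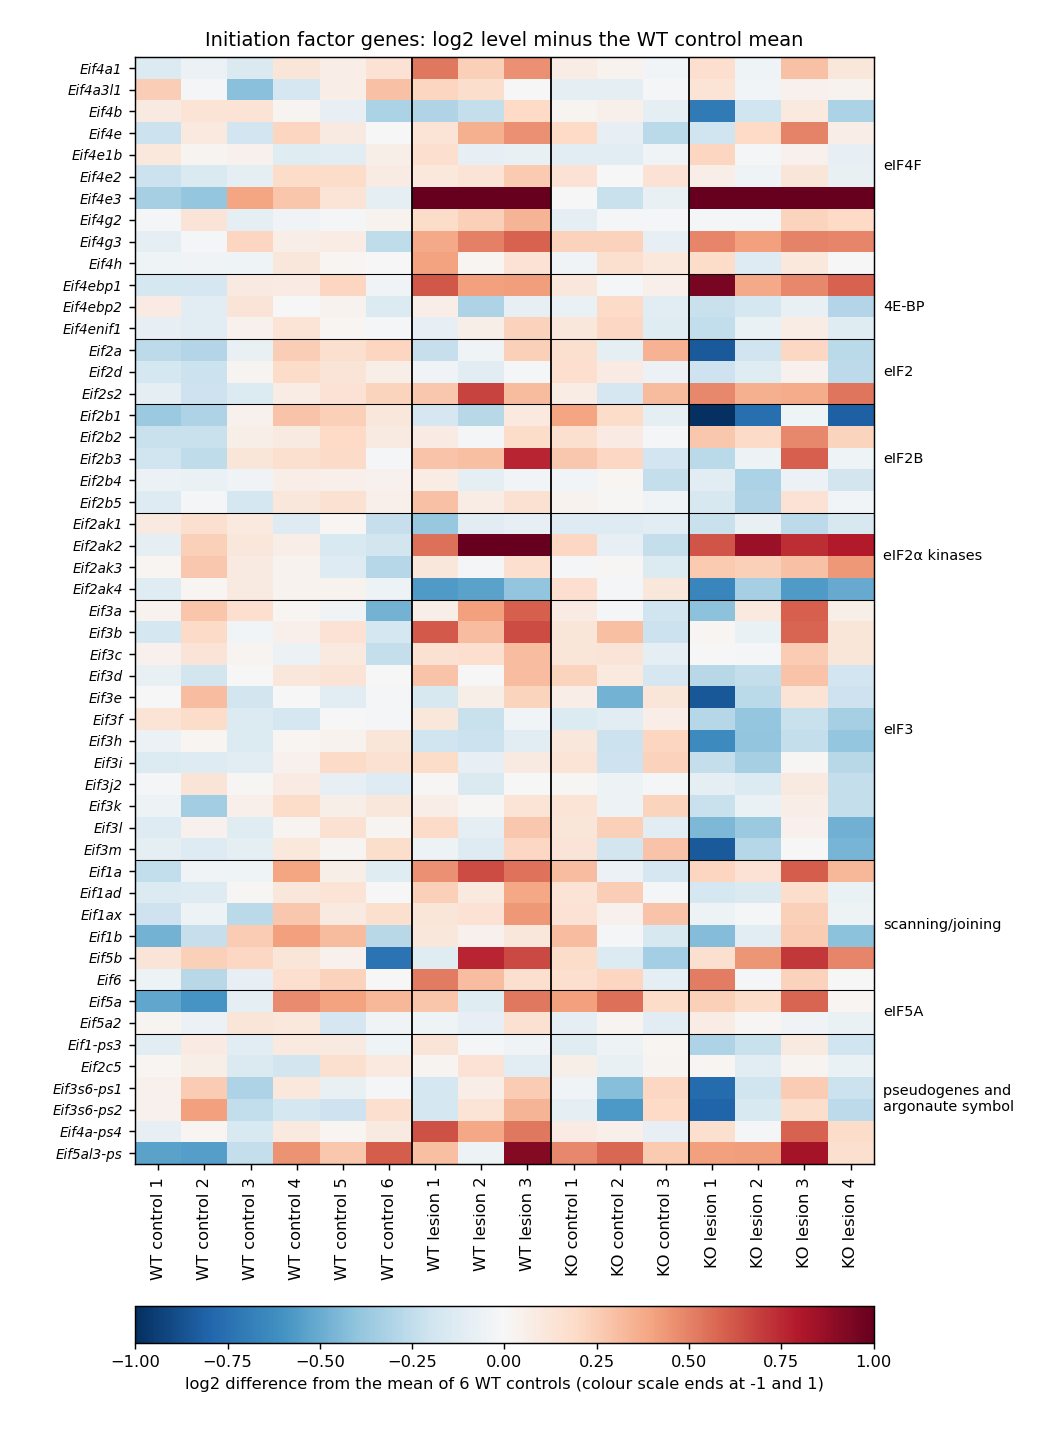
Log2 level of each of the 51 genes (rows, grouped by complex) on each of the 16 arrays (columns, grouped by genotype and diet), less the mean of the 6 WT controls; red is higher and blue lower, and values past -1 or 1 share the end colour. Eif4e3 and Eif2ak2 are red and Eif2ak4 blue across all 7 lesions, and KO lesions 1, 2 and 4 are bluer than KO lesion 3 in the eIF3 rows.

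Of the 3 genes covered of eIF2 and the alternative initiator-tRNA carriers, 1 was called. Eif2s2, the beta subunit of eIF2, was 9.17, 9.37 and 9.60 (lowest, median, highest) in WT controls and 9.65, 10.05 and 9.69 in WT lesions. For KO mice the controls were at 9.45, 9.21 and 9.69, and the lesions at 9.86, 9.73, 9.75 and 9.91. Lesions lay above controls in both genotypes. It was called in WT, at 0.42 (SE 0.12, adjusted p = 0.0253), and just missed in KO, at 0.36 (SE 0.13, adjusted p = 0.0586), by limma. Without WT lesion 2 the WT change was 0.30 (adjusted p = 0.175). Those carriers, Eif2a and Eif2d, were called in neither: Eif2a changed by -0.01 and -0.42, and Eif2d by -0.05 and -0.20.

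In eIF2B, the exchange factor that recharges eIF2 with GTP, the alpha subunit gene Eif2b1 had the largest fall. It was 8.06, 8.52 and 8.72 (lowest, median, highest) in WT controls and 8.27, 8.16 and 8.53 in WT lesions, which overlap. In KO mice it was 8.83, 8.62 and 8.34 in controls and 7.32, 7.68, 8.39 and 7.62 in lesions, so lesion 3 overlapped the controls while the other 3 lay below all of them. The change was -0.12 (95% interval -0.55 to 0.32) in WT and it fell by 0.85 (SE 0.22, 1.80-fold lower, adjusted p = 0.0107) in KO by limma. Without KO lesion 3 it fell by 1.06 (adjusted p = 0.000593), without KO control 1 by 0.73 (adjusted p = 0.0648), and with the series covariate by 0.43 (adjusted p = 0.531). The higher-series WT controls were 0.42 above the lower-series ones for this gene. The other 4 subunits, Eif2b2 to Eif2b5, were called in neither response. Eif2b3 lay apart in WT lesions, at 7.06, 7.07 and 7.53 against 6.52 to 6.96, but missed the call at 0.45 (SE 0.18, adjusted p = 0.102).

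Targets and regulators of the integrated stress response were called in both directions, more often higher than lower. Of 26 measured of a list of 28, 8 were called higher and 4 lower in WT, and 6 higher and 2 lower in KO, with medians of 0.08 and 0.07. Of all genes, 6.98% were called higher and 8.37% lower in WT, and 8.99% higher and 12.1% lower in KO. Slc7a11, the cystine transporter, rose 6.85-fold in WT and 8.48-fold in KO. Cth, a cysteine-producing enzyme, fell by 1.08 on the log2 scale in WT, and its KO means were 9.60 in controls and 8.25 in lesions. Atf3 rose 2.72-fold in KO, and its WT means were 7.86 in controls and 8.53 in lesions. Atf4 itself was not called, at 0.20 and -0.09, and Ddit3, which encodes CHOP, fell by 0.57 in WT (adjusted p = 0.0109, limma) and changed by -0.29 in KO, uncalled. The mRNA of Atf4 is regulated largely at translation, so its level does not report the pathway's output.

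Scanning and subunit-joining factors had 1 call. Eif1a, a copy of the scanning factor eIF1A, was 8.56, 8.76 and 9.20 (lowest, median, highest) in WT controls and 9.26, 9.46 and 9.35 in WT lesions, with no overlap. Among KO mice the controls had 9.11, 8.75 and 8.64, and the lesions 9.02, 8.95, 9.41 and 9.14, which overlap. The change was 0.55 (SE 0.14, adjusted p = 0.00999, limma) in WT and 0.30 (95% interval -0.01 to 0.61) in KO. Without WT lesion 2 the WT change was 0.50 (adjusted p = 0.0577). Its copy Eif1ax changed by 0.23 and -0.12, and Eif1ad by 0.24 and -0.17, none called. Eif5b, the joining factor, had changes of 0.43 and 0.55, with wide spread (SE 0.22 and 0.24) and no call. Eif6, which keeps the large subunit apart, changed by 0.33 and 0.09, and Eif1b, a homolog of eIF1, by 0.09 and -0.22.

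The 12 subunits covered of eIF3, the scaffold that bridges the small subunit and eIF4G, had medians of opposite sign in the 2 responses. However, no subunit was called for the difference between those responses. In WT lesions 9 of 12 were above 0, as were 35.4% of all genes, and the median change was 0.07, with 1 called higher. In KO lesions 9 of 12 were below 0, as were 48.7% of all genes, and the median was -0.21, or -0.14 without KO lesion 1. In KO 3 of the 12 were called lower, against 12.1% of all genes. With quantile normalization repeated 7 of 12 were below 0 in WT and the median turned to -0.02, so the WT direction depends on the scaling. Eif3b, a core subunit, was 9.15, 9.34 and 9.52 (lowest, median, highest) in WT controls and 9.94, 9.64 and 9.98 in WT lesions, without overlap. It changed by 0.53 (SE 0.15, adjusted p = 0.0211, limma), and lost the call in 4 of 12 alternatives and without WT lesion 1 or 3 (adjusted p = 0.0819 and 0.112). The KO values of Eif3b were 9.45, 9.63 and 9.11 without sulindac and 9.35, 9.26, 9.91 and 9.45 with it, and the change was 0.10 (95% interval -0.24 to 0.43). Eif3c changed by 0.21 in WT, where every lesion lay above every control, and by 0.04 in KO. Eif3i changed by 0.062 and -0.265, and Eif3j2 by -0.041 and -0.077. None of these 3 was called.

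The 3 eIF3 subunits called lower in KO were Eif3h, Eif3l and Eif3m. Eif3h was 10.41, 10.65, 10.81 and 10.66 in KO lesions, against 11.16, 10.83 and 11.26 in KO controls, without overlap, and fell by 0.45 (SE 0.10, adjusted p = 0.00536, limma). In WT it was 10.91, 11.07 and 11.17 (lowest, median, highest) in controls and 10.85, 10.83 and 10.94 in lesions, a change of -0.17 (95% interval -0.38 to 0.03). Eif3l was 8.44, 8.52, 8.93 and 8.41 in KO lesions, against 9.01, 9.13 and 8.78 in KO controls, which overlap through lesion 3, and fell by 0.40 (SE 0.13, adjusted p = 0.0361, limma). In WT it was 8.76, 8.92 and 9.04 in controls and 9.08, 8.79 and 9.16 in lesions, a change of 0.12. Eif3m was 8.16, 8.72, 9.0 and 8.54 in KO lesions, against 9.13, 8.82 and 9.29 in KO controls, which overlap, and fell by 0.48 (SE 0.16, adjusted p = 0.0475, limma). In WT it was 8.87, 8.97 and 9.18 in controls and 8.95, 8.87 and 9.21 in lesions, a change of 0.01. None of the 3 falls was called with the series covariate. Eif3m kept its call in 3 of 11 alternatives and with 3 of 16 arrays left out in turn, and Eif3l in 4 of 11 and 11 of 16. Eif3l lost it without KO control 1 or 2 or KO lesion 1, 2 or 4, at adjusted p from 0.077 to 0.153.

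By array, KO lesion 3 set itself against the other 3. The mean difference of the 12 subunits from the WT control mean was -0.36, -0.20, 0.13 and -0.21 in KO lesions 1 to 4, and 0.11, 0.01 and 0.22 in WT lesions. WT controls ran from -0.05 to 0.05 and KO controls from -0.04 to 0.09. The proliferation genes and the aminoacyl-tRNA synthetases ordered the KO lesions alike, with lesion 3 highest and lesion 1 lowest; the part of proliferation in the eIF3 values was not tested. The synthetases, which charge tRNAs, had 7 of 20 called higher in WT and 2 in KO, led by Wars (0.94 and 0.67). Of all genes, 6.98% were called higher in WT and 8.99% in KO. Kars rose by 0.54 in WT, and its KO means were 9.18 in controls and 9.33 in lesions. Rars rose by 0.43 in KO, and its WT means were 9.57 in controls and 10.07 in lesions. None of the 20 was above 0 in the genotype difference on sulindac.

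**Figure D4:**
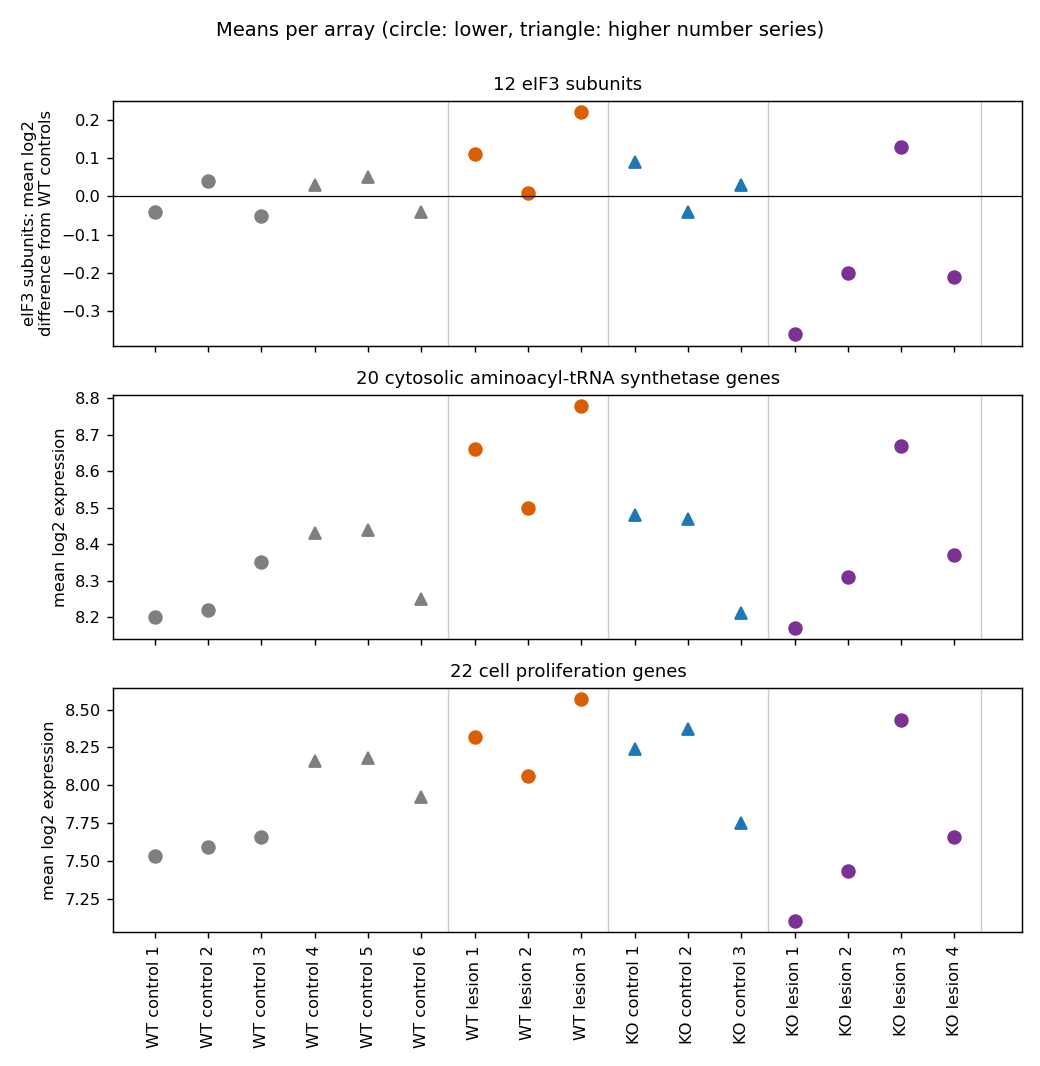
Mean per array over the 12 eIF3 subunits (top, log2 difference from the WT control mean), 20 aminoacyl-tRNA synthetases (middle, log2 level) and 22 proliferation genes (bottom, log2 level); circles are lower-series and triangles higher-series arrays. KO lesion 3 is at 0.13, 8.67 and 8.43, above the other KO lesions in all 3 panels.

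Among other genes of initiation and elongation, most calls were falls in KO. Of 19 measured initiation partners and recycling factors, 1 was called higher and 1 lower in WT, and 6 lower in KO. Of all genes, 6.98% were called higher and 8.37% lower in WT, and 12.1% lower in KO. The median change of these 19 was 0.11 in WT and -0.19 in KO. Denr, a recycling and reinitiation factor, rose by 0.27 in WT, and its KO means were 7.43 in controls and 7.59 in lesions. Mcts1, the partner of Denr, fell by 0.57 in KO, and its WT means were 5.83 in controls and 5.66 in lesions. Dap fell by 0.37 in WT and by 0.43 in KO. Of 17 elongation and termination factors, none was called in WT and 1, Eef1b2, fell in KO, by 0.43.

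The eIF5A pair was not called. Eif5a, whose hypusine-bearing product helps ribosomes past difficult sequences, was 8.61, 9.32 and 9.67 (lowest, median, highest) in WT controls, an SD of 0.47 and the widest spread of the 45 named factors in that group. WT lesions were at 9.48, 9.08 and 9.73, KO controls at 9.61, 9.75 and 9.38, and KO lesions at 9.44, 9.38, 9.78 and 9.22. The groups overlap, and the changes were 0.23 (95% interval -0.26 to 0.72) and -0.13 (-0.66 to 0.40). Its paralog Eif5a2 was near the array medians, with a WT control mean of 5.21, and changed by 0.01 and 0.06.

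The spread of Eif5a followed the number series. WT controls of the lower series had a mean of 8.80 and those of the higher series 9.60, a difference of 0.80 (SE 0.18, adjusted p = 0.104, limma). Among the 51 genes, 18 (35.3%) had every higher-series WT control above every lower-series one, against 9.11% of all genes, and 4 (7.84%) the reverse, against 9.29%. None of the 51 was called for the series, with 11 (21.6%) at an unadjusted p under 0.05, against 10.2% of all genes. With the series as a covariate, 13 members were called higher and 2 lower in WT, Eif5a among the higher, and 4 higher and 1 lower in KO. That fit called 13.4% of all genes in WT and 8.19% in KO. With lower-series arrays alone the WT response had 11 higher and 1 lower, where 11.9% of all genes were called. Proliferation genes were also higher in the higher-series WT controls, 7.92 to 8.18 against 7.53 to 7.66.

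**Figure D5:**
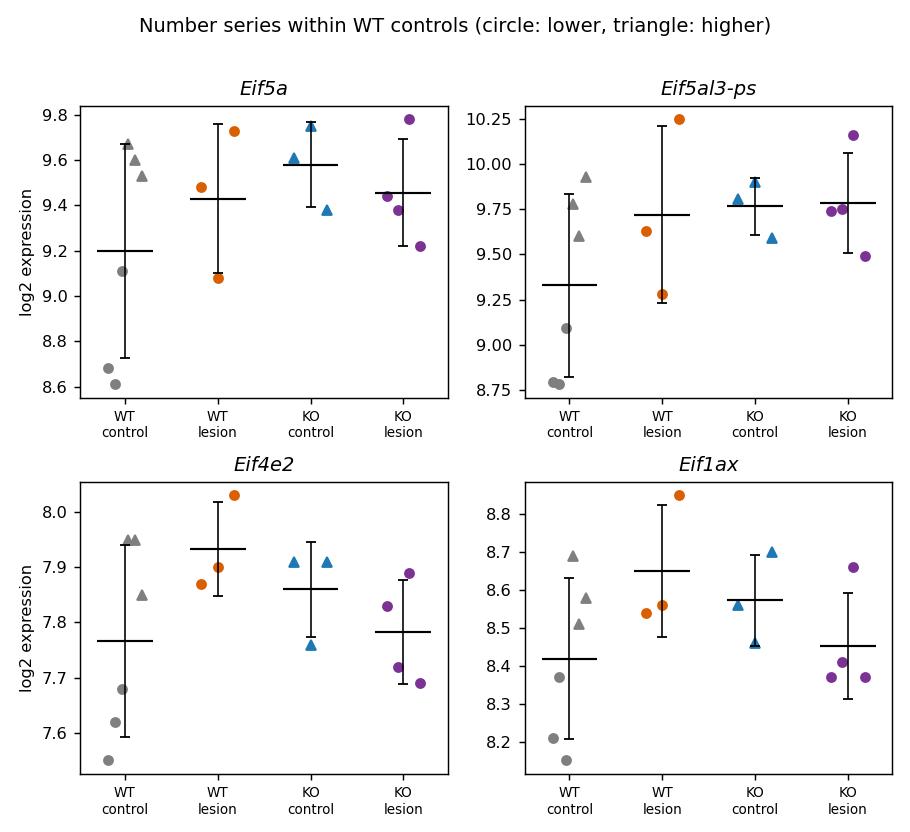
Log2 expression of Eif5a, Eif5al3-ps, Eif4e2 and Eif1ax by array, with mean (bar) and SD (whiskers) per group; circles are arrays of the lower and triangles of the higher number series. In all 4 genes the 3 higher-series WT controls lie above the 3 lower-series ones, 9.53 to 9.67 against 8.61 to 9.11 in Eif5a.

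Pseudogene rows may share signal with the genes they were copied from, so their values are uncertain. Eif4a-ps4 was 10.20, 10.37 and 10.45 (lowest, median, highest) in WT controls and 10.99, 10.74 and 10.88 in WT lesions, and was called at 0.52 (SE 0.11, adjusted p = 0.00335, limma), a call lost with quantile normalization repeated (adjusted p = 0.0755). KO controls were at 10.43, 10.40 and 10.27, and KO lesions at 10.51, 10.33, 10.94 and 10.53, a change of 0.21, not called. Eif5al3-ps was 0.89 higher in higher-series WT controls, as Eif5a was by 0.80. Eif3s6-ps1 and Eif3s6-ps2, named for the older symbol of Eif3e, changed by 0.05 and 0.10 in WT and by -0.15 and -0.10 in KO, where Eif3e changed by 0.04 and -0.21. Eif1-ps3 changed by 0.03 and -0.11. Eif2c5 lay below the array medians, at 3.68 in WT controls, and changed by 0.02 and -0.04.

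Between genotypes no member was called. On control feed limma called 0 of 51, and 0.0% of all genes, with 0 members at an unadjusted p under 0.05. None lay apart in either direction, against 0.195% of all genes higher and 1.2% lower. Mcc itself was not called on control feed (-0.595, adjusted p = 0.083, limma), although every KO control lay below every WT control. The lack of member calls there therefore does not show that no member differed. On sulindac limma called 0 of 51, against 0.306% of all genes, with 12 members at an unadjusted p under 0.05, as were 13.4% of all genes. For the difference between the 2 responses it called 0 of 51, against 0.00326% of all genes, with 5 members at an unadjusted p under 0.05, where 11.1% of all genes were, so that this count is no more than the background share. Even so, 41 of 51 members were lower in KO than in WT lesions, where 40.0% of all genes were, and the median difference was -0.17 against 0.04 for all genes. For the difference between responses 43 of 51 were below 0, against 38.1% of all genes. The lower values rest on the 3 KO lesions other than lesion 3: the mean over all 51 genes was -0.09, -0.02, 0.25 and -0.02 in KO lesions 1 to 4, and 0.15, 0.13 and 0.28 in WT lesions.

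All 12 eIF3 subunits covered were lower in KO than in WT lesions, with a median difference of -0.27. With quantile normalization repeated, 11 of 12 were. Of the 12, 7 had an unadjusted p under 0.05, as had 13.4% of all genes. All 22 proliferation genes were also lower in this comparison, with a median of -0.67, and 10 of 11 neutrophil markers were above 0, with a median of 1.55; their part in the eIF3 values was not tested. Eif3f and Eif3h were lower on every KO lesion than on every WT lesion, at 8.43 to 8.59 against 8.59 to 8.93 (the nearest pair differs before rounding) and at 10.41 to 10.81 against 10.83 to 10.94. They are the 2 members apart and lower, as were 3.92% of all genes, and 2 other members were apart and higher, as were 5.48%. Eif3l had the lowest adjusted p of the members, 0.171 (limma), with a difference of -0.44 (SE 0.13). Without KO lesion 3, 7 members were called lower: Eif1ad, Eif2b1, Eif3b, Eif3d, Eif3l, Eif3m and Eif4a-ps4, where 5.53% of all genes were called. Without it Eif3l was also called for the difference between responses, with 1.69% of all genes called. Eif4e3 and Eif2ak4 differed little between the genotypes in lesions, by 0.14 (95% interval -0.25 to 0.53) and -0.02 (-0.19 to 0.16).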

How the data were processed

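Total RNA of 16 samples was hybridised to Affymetrix arrays. The authors deposited log2 expression values, summarised by RMA with Affymetrix Power Tools 1.16.1 per the submitters' processing notes. The build is not given in the sources used here. Of 72688 rows, 31258 had 1 gene after old symbols were updated, 1492 had several and 39938 were not listed in the platform annotation. The highest-mean row per gene left 30702 genes.

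A linear model of 4 group means over all arrays was fitted with limma 3.58.1 (R 4.3.3, eBayes), with Benjamini-Hochberg adjustment over all genes, and tested on simulated data. Every member is named. Values of each array are given for called members, up to the 14 with the largest absolute change, with at least 1 per complex and paralogs beside them. From each companion list the 2 called genes with the largest change in each response are named. The E-box windows, Eif2b3 and the apart but uncalled genes were chosen after their values were seen. The members and lists were chosen with earlier results of these data known.

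Deviations from the group means were correlated between arrays with the same replicate number in their titles. Between lesions of the 2 genotypes r was 0.465, 0.296 and 0.54, and in the WT response 0.347, 0.171 and 0.097. It was negative in the other comparisons. Arrays of different numbers were not correlated in this way and the labels state no pairing, so none was assumed. Replicates correlated at 0.9825 to 0.996, and no pair was a duplicate. The number of arrays limits the precision.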

Additional observations from a re-analysis of the deposited data

Results flagged for a closer look

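Eif4g3 had 1 array away from the others of its group: KO lesion 2 was at 8.17, and the nearest of the other 3 KO lesions was at 8.25. The gap is large against the narrow range of that group. Among 30 groups of named members examined for such gaps it was the only one, and chance gives about 1 in 20.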

How the results depend on the processing

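Of 21 member calls, 9 held in every alternative and with each array left out: Eif2ak2, Eif2ak4, Eif4a1, Eif4e3, Eif4ebp1 and Eif4g3 in WT, and Eif2ak4, Eif4e3 and Eif4ebp1 in KO. None of these 21 called changes turned its sign; among uncalled members signs did turn, as members below 0 in WT went from 11 to 16 with quantile normalization repeated and to 7 with arrays centred on their medians, and those in KO from 30 to 19 with the number series as a covariate. In the KO response 10 members were called, but 5 with the number series as a covariate, 6 from the 2 groups alone and 5 at an adjusted p under 0.01. The share of all genes called went from 21.1% to 8.19%, 15.3% and 13.1% in these settings. The cause was not tested. With each array left out, the KO count ran from 6 (without KO control 1 or KO lesion 4) to 11. The count of the genotype difference on sulindac ran from 0 to 7, and that of the difference between responses from 0 to 1. The upper values came without KO lesion 3. The eIF3 median in WT turned to -0.022 with quantile normalization repeated. That setting gave 6 higher and 3 lower in WT, and centring arrays on their medians gave 5 higher and 3 lower in KO. With the replicate block, 9 members were called in WT and 7 in KO, where 11.5% and 18.9% of all genes were. Between the lesions of both genotypes no member was called with the block or without it. Of all genes, 94 were called there without the block and 2 with it. The KO response could not be run within 1 number series, since each of its groups lies in 1.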
